A study of Mus musculus with 10 samples.

Results

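The genes described here encode the mitochondrial respiratory chain and ATP synthase. They were taken by name from a mouse array: every probe for a gene whose symbol begins with Nduf, Cox4 to Cox8, Uqcr or Atp5, or is Sdha, Sdhb, Sdhc or Sdhd. The rule found 83 genes, read by 117 probes, of 27554 genes and 41143 probes measured. By function, 36 are subunits of complex I, 4 of complex II, 7 of complex III, 17 of complex IV and 15 of complex V. The other 4 are no subunits of these complexes: Ndufaf1 and Ndufa12l (now Ndufaf2) are assembly factors of complex I, Atp5s (now Dmac2l) is known as coupling factor B, and Cox4nb (now Emc8) is a protein of the endoplasmic reticulum that shares only its name with the family. The genes of the chain that lie in mitochondrial DNA do not match the rule.

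Expression was measured in whole adult ileum, the distal small intestine, with 10 one-colour arrays, 2 for each of 5 groups of C57BL/6 mice that were 6 to 8 weeks old. TetON stands for a transgene that is silent until doxycycline (DOX) binds its regulator, rtTA. Sox2 +DOX denotes TetON-Sox2 animals that received DOX, and Sox2 -DOX denotes untreated TetON-Sox2 animals. Animals carrying TetON-Sox2 together with TetON-Oct4 and given DOX are called Sox2xOct4 +DOX, and animals with TetON-Oct4 alone and DOX are Oct4 +DOX. The remaining group, rtTA +DOX, received DOX but had no TetOP-Sox2 transgene. The dose was 2 mg/ml over 2 days, in water sweetened with 1% sucrose. No sucrose is recorded for Sox2 -DOX, so DOX, sucrose and the induced transgene differ together in Sox2 +DOX against Sox2 -DOX. The labels name neither the promoter behind rtTA nor whether both arrays of a group hold different animals, so the p-values below measure only the spread between these samples, which may be technical.

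Cells make most of their ATP by oxidative phosphorylation. Complex I takes electrons from NADH and complex II from succinate, and both pass them through ubiquinone to complex III, from there by cytochrome c to complex IV (cytochrome c oxidase), and so to oxygen. Complexes I, III and IV pump protons across the inner mitochondrial membrane, and complex V (ATP synthase) uses the gradient to make ATP. The absorptive cells of the small intestine are rich in mitochondria. Several subunits of complex IV exist as a general isoform and an isoform found mainly in muscle, brown fat, lung or testis. In mammals the transcription factors NRF1 and GABPA and the oestrogen-related receptors bind promoters of many nuclear genes of the chain.

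Of the 83 genes, 68 were matched by symbol to RefSeq promoters (73 promoters, build GRCm38.p6, 250 bases before to 50 after the gene's start), and 3 short motifs were searched on both strands. The letters GCGCATGCG, the core of the NRF1 site, occurred in 8 promoters of these genes (11% of 73), against 1.75% of all 32851 promoters in the table. Those genes encode subunits of complexes I, III, IV and V. The lines below show 5 of them, chosen after the matches were seen so that every one of these complexes is included, each read 5′ to 3′ on the gene's strand with the motif in capitals. Where the letters continue as GCGCATGCGC, the match on the other strand overlaps the one shown.
Ndufa11 (complex I), chr17:56717692-56717720, plus strand: cctgcactgcGCGCATGCGcgcacgcctt
Ndufa8 (complex I), chr2:36049329-36049357, minus strand: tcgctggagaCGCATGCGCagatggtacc
Uqcrc1 (complex III), chr9:108936668-108936696, plus strand: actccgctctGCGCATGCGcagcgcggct
Cox6a1 (complex IV), chr5:115349102-115349130, minus strand: caggaacgggGCGCATGCGcgctctcgct
Atp5g2 (complex V), chr15:102671071-102671099, minus strand: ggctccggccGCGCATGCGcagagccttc
The GABPA letters CCGGAAGT occurred in 5 promoters (6.85%, against 3.89% of all), including those of Cox8a and Ndufs3, and the letters TCAAGGTCA, a half-site of the oestrogen-related receptors, in 2 (2.74%, against 0.423% of all), those of Atp5g3 and Sdhd.
Cox8a (GABPA), chr19:7217605-7217632, minus strand: tttccgaaatACTTCCGGctcgggcgtc
Ndufs3 (GABPA), chr2:90904704-90904731, minus strand: gcacatttccACTTCCGGtccgtgccct
Atp5g3 (oestrogen-related receptor), chr2:73911360-73911388, minus strand: tgttacaaagTGACCTTGAgcgtcttccc
Sdhd (oestrogen-related receptor), chr9:50603800-50603823, minus strand: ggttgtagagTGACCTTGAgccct
These matches describe letters in a window and not bound sites. In Sox2 +DOX minus Sox2 -DOX, the median log2 change was -0.31 over the 8 genes with the NRF1 letters and -0.21 over the 60 tested genes whose promoters lack them.

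A level below is the log2 of a probe's signal minus the log2 of its array's 75th percentile, and is compared only between arrays for the same probe. For a gene with several probes, the one with the highest mean stands for it. A gene was tested where its signal was well above background on the 2 arrays of some group, which held for 81 of the 83. The exceptions, Cox4i2, a complex IV isoform of lung, and Cox8c, an isoform known from testis in humans, reached this on 0 of 10 arrays. Groups were compared with limma over 19055 genes, and a gene was called at a Benjamini-Hochberg adjusted p under 0.05. Slide 1 carried Sox2 +DOX and Sox2 -DOX, slide 2 carried Sox2xOct4 +DOX and rtTA +DOX, and slide 3 carried Oct4 +DOX, so for comparisons across slides, slide and group cannot be told apart. The probe for Pou5f1, the gene of Oct4, was well above background on the 2 Sox2xOct4 and the 2 Oct4 arrays and on no other, and the probe for Sox2 on no array, so it does not check the Sox2 labels. All 12 absorptive enterocyte markers were measured, and 5 of them were called lower in Sox2 +DOX than in Sox2 -DOX, against 4.8% of all genes.

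Over the 10 arrays the level of a gene spanned a median of 1.1 log2 units, with the narrowest span for Atp5f1 (0.52), a subunit of the stalk of ATP synthase now named Atp5pb. The widest was that of Cox8b (4.09), an isoform of muscle and brown fat, followed by Cox7a1 (2.75), an isoform of heart and skeletal muscle, Ndufa11 (2.62), a membrane subunit of complex I, and Cox6b2 (2.61), an isoform of testis. Of these 4 genes, 3 are tissue isoforms of complex IV. These spans include gaps between the arrays of a group. In Sox2xOct4 +DOX alone the dim Cox8b probe was at -5.73 and -1.65, its 2 extremes, and Ndufa11 was at -0.26 and 2.32.

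Sox2 +DOX was compared with Sox2 -DOX, where DOX and sucrose differ along with the induction of Sox2, and 1 gene of the chain was called. It was Cox6b2, lower in Sox2 +DOX, and no gene of the chain was called higher. Of all genes tested, 7.84% were called in either direction, 4.8% lower and 3.03% higher, so the 1 of 81 here is below the share over all genes. At an unadjusted p under 0.05 there were 3 of 81, against 27.1% of all genes. The median log2 change of the 81 genes was -0.24 and that of all genes was -0.10, and 78 of the 81 differed by less than 2-fold. The 95% interval of the change lay within 2-fold in both directions for 20 of the 81, and for the others it reached beyond 2-fold. The 2 arrays of a group did not overlap with those of the other for 62 of 81 genes (76.5%), against 66.4% of all genes, and in 50 of them Sox2 +DOX was lower, against 36.6% of all genes.

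**Figure D1:**
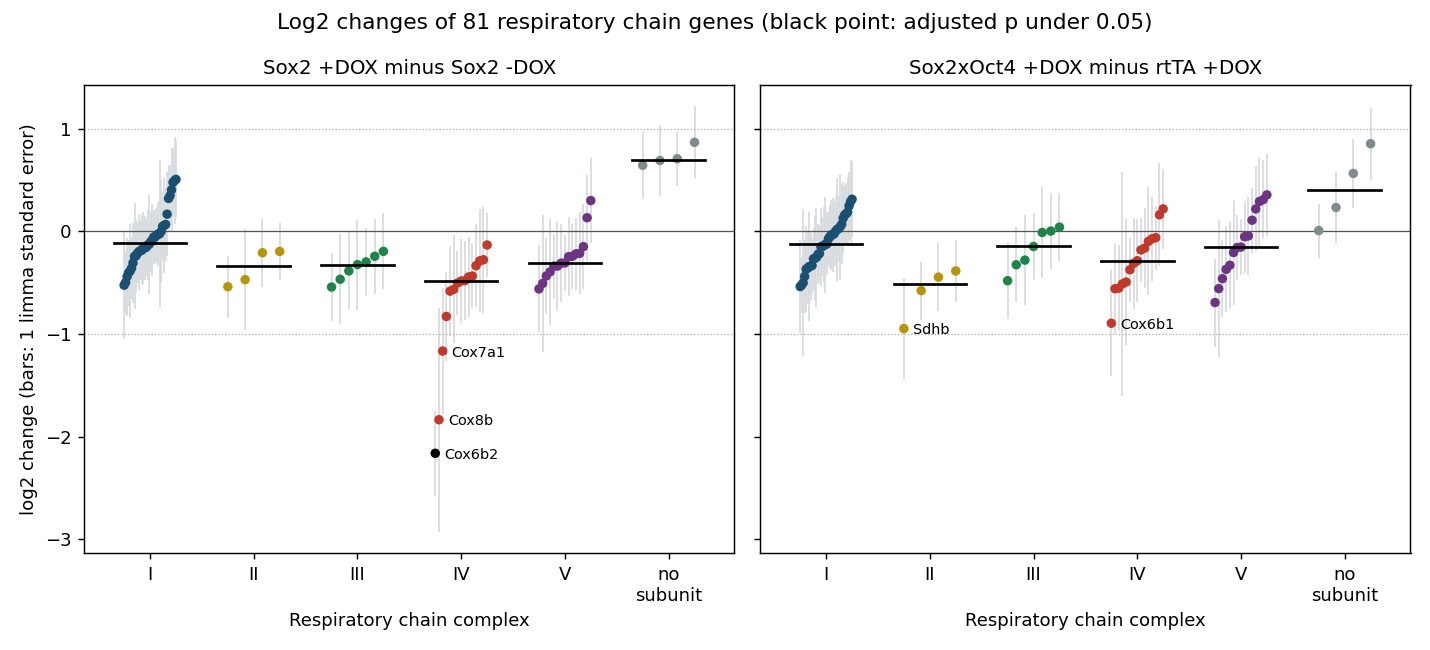
Log2 change of each of the 81 tested genes by complex (points, with 1 limma standard error; black line, median of the complex), for Sox2 +DOX minus Sox2 -DOX on the left and Sox2xOct4 +DOX minus rtTA +DOX on the right. The dotted lines mark 2-fold, and the black point is Cox6b2, the only gene called in either comparison.

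Complex I, the entry point for electrons from NADH, had the median change nearest 0 in Sox2 +DOX minus Sox2 -DOX (-0.11 over 36 subunits), with 26 lower and 10 higher values and none called. With quantile normalization between arrays, which put the median of all genes at 0.00 in place of -0.10, the median of complex I was also 0.00, with 17 lower and 19 higher values. The lowest were Ndufa1 (-0.53), Ndufb7 (-0.50) and Ndufb9 (-0.44), small subunits of the membrane arm. Ndufc2 (0.50), Ndufs8 (0.49) and Ndufb6 (0.48) had the highest values. Ndufs8, which carries iron-sulphur clusters, had levels of 2.92 and 2.70 in Sox2 +DOX and 2.41 and 2.23 in Sox2 -DOX. The groups did not overlap for this gene, and its interval ran from -0.47 to 1.46 with an adjusted p of 0.477 (limma, Benjamini-Hochberg). Ndufa4, first assigned to complex I and since found in complex IV, had a change of 0.40 (standard error 0.41). For 15 of the 36 subunits the interval lay within 2-fold.

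Complex II, or succinate dehydrogenase, also works in the tricarboxylic acid cycle. All 4 subunits had lower values in Sox2 +DOX, none called, with a median of -0.34 (-0.21 with quantile normalization). Sdha, the flavoprotein that oxidises succinate, had levels of 2.71 and 2.83 in Sox2 +DOX, against 3.56 and 3.05 in Sox2 -DOX. Its change was -0.54 (standard error 0.30, adjusted p = 0.285 by limma). The second probe of Sdha had overlapping levels, 2.72 and 2.86 in Sox2 +DOX and 3.21 and 2.78 in Sox2 -DOX. Sdhb, the iron-sulphur subunit, was at -0.47, and the membrane anchors Sdhc and Sdhd were at -0.20 and -0.21.

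Complex III passes electrons to cytochrome c. Its 7 subunits all had lower values in Sox2 +DOX (median -0.32, or -0.19 with quantile normalization) and none was called. Uqcrh, the hinge protein, had the lowest change, -0.54, with levels of 6.94 and 6.92 in Sox2 +DOX and 7.56 and 7.39 in Sox2 -DOX. The small subunit Uqcrq was at -0.47, the Rieske iron-sulphur protein Uqcrfs1 at -0.39, the core proteins Uqcrc1 and Uqcrc2 at -0.30 and -0.24, and Uqcrb at -0.20. Every one of the 7 was separate between the groups, as were 66.4% of all genes.

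Complex V, the ATP synthase, had a median change of -0.31 over 15 subunits, of which 13 had lower values and none was called (with quantile normalization -0.15 and 12). Atp5j2 (-0.56), Atp5k (-0.51) and Atp5d (-0.44) were lowest. By the probe that stands for it, the catalytic subunit Atp5b had levels of 7.05 and 7.01 in Sox2 +DOX and 7.30 and 7.26 in Sox2 -DOX. Its change was -0.25 with an interval from -1.13 to 0.64. The other Atp5b probes gave changes of -0.0055 and 0.027, and the levels of each overlapped between the groups. The proton-translocating c-ring is encoded by Atp5g1, Atp5g2 and Atp5g3, which give the same mature protein. Atp5g2 (0.30) and Atp5g1 (0.13) were the 2 subunits with higher values, and Atp5g3 was at -0.34. Atp5j, of the peripheral stalk, had the next highest value, -0.15.

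Complex IV, which reduces oxygen, had the lowest median of the complexes in Sox2 +DOX minus Sox2 -DOX, -0.48, and all 15 tested subunits had lower values. With quantile normalization its median was -0.32 and all 15 values were again lower. Of these, 13 did not overlap between groups. The 3 genes that differed by more than 2-fold were the isoforms Cox6b2, Cox8b and Cox7a1, and 12 of 15 subunits were within 2-fold. The general subunits Cox4i1 (-0.50), Cox5a (-0.44), Cox5b (-0.34), Cox6a1 (-0.45), Cox6c (-0.48), Cox8a (-0.48), Cox7a2 (-0.58) and Cox7b (-0.83) were not called. Cox7b had levels of 4.26 and 4.32 in Sox2 +DOX, against 5.14 and 5.10 in Sox2 -DOX, with an adjusted p of 0.258 (limma). Cox7a2l, which links complexes III and IV, was at -0.13, and the small subunit Cox7c at -0.29.

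The probes of Cox6b2, of its general counterpart Cox6b1 and of Cox7a1 are shown because Cox6b2 was the 1 called gene and the other probes read its counterpart and a further tissue isoform. The Cox6b2 and Cox6b1 probes share no run of letters longer than 6 bases, and the same holds for Cox7a1 and Cox7a2. Positions come from the array's own annotation (build NCBI36, mm8), the probes are 60 bases long, and for Cox6b2 the first 30 are printed. The positions of Cox6b1 and Cox7a1 span more than the probe's length.
Cox6b2, chr7:4355003-4355032, minus strand: ggaactttcccgggcaaaatatgaccttgc
Cox6b1, chr7:30333316-30334812, minus strand: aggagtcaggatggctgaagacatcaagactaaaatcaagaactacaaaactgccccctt
Cox7a1, chr7:29894078-29894689, plus strand: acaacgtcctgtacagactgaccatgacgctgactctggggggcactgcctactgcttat

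Cox6b2 encodes the testis isoform of a subunit that faces the intermembrane space. Its level was -2.0 and -1.27 in Sox2 +DOX, against 0.45 and 0.60 in Sox2 -DOX. It was -1.17 and -0.10 in Sox2xOct4 +DOX, -0.39 and 0.05 in Oct4 +DOX, and -0.05 and -0.11 in rtTA +DOX. Both Sox2 +DOX arrays were lower than the other 8, and the probe was well above background on all 10. Cox6b2 fell by 2.16 on the log2 scale in Sox2 +DOX against Sox2 -DOX (4.48-fold, standard error 0.42, 95% interval from -3.12 to -1.21, limma adjusted p = 0.0219). This call was lost in a fit to the 4 arrays compared alone (adjusted p = 0.0516) and in the authors' normalized table (0.051). The call was also lost without replicate 1 of Sox2 +DOX (0.158), replicate 1 of Sox2 -DOX (0.117) or replicate 2 of Sox2 -DOX (0.117). Its change stayed between -2.24 and -1.79 in these. Cox6b1 had levels of 1.55 and 1.61 in Sox2 +DOX and 2.05 and 1.67 in Sox2 -DOX, a change of -0.28 (interval from -1.46 to 0.91).

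Cox7a1 and Cox8b had lower values in Sox2 +DOX and were not called. Cox7a1 had levels of 3.20 and 4.30 in Sox2 +DOX and 5.13 and 4.70 in Sox2 -DOX. The groups did not overlap, and the change was -1.17 (interval from -2.57 to 0.23, adjusted p = 0.256 by limma). Cox8b had levels of -4.27 and -5.04 in Sox2 +DOX and -2.63 and -3.01 in Sox2 -DOX, a change of -1.83 (interval from -4.34 to 0.67, limma adjusted p = 0.312). With normexp background correction and quantile normalization the change of Cox8b was -0.63, within 2-fold. Its levels of -5.73 and -1.65 in Sox2xOct4 +DOX were the 2 extremes of the 10 arrays. Cox6a2, another isoform of heart and skeletal muscle, had levels of -5.53 and -3.80 in Sox2 +DOX, on either side of the -4.11 and -4.08 in Sox2 -DOX.

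Markers of fat and muscle, and of several other cell types, also had lower summed levels in Sox2 +DOX. The summed level of 9 measured adipocyte markers of 11 listed, as a linear signal over the 75th percentile, was 6.28 and 12.4 in Sox2 +DOX and 32.2 and 42.2 in Sox2 -DOX. Lipe, the hormone-sensitive lipase, was the 1 of these 9 called (log2 change -2.67, adjusted p = 0.00659 by limma), and Ucp1, the marker of brown fat, was not well above background on both arrays of any group. For 8 smooth muscle markers the summed level was 53.0 and 40.0 in Sox2 +DOX, against 131 and 94.8 in Sox2 -DOX, and none was called. For 6 striated muscle markers of 10 listed the summed level was 0.606 and 0.502 in Sox2 +DOX and 0.943 and 0.856 in Sox2 -DOX, with Actn3, Myh4, Myh6 and Tnnt3 not well above background. All 3 isoforms and these sums had lower values in Sox2 +DOX, and the markers' part in the result was not tested. The sums were lower in Sox2 +DOX for other cell types too. That of T cell markers was 1.42 and 2.35 in Sox2 +DOX and 8.32 and 6.39 in Sox2 -DOX, that of goblet cell markers 345 and 708 in Sox2 +DOX and 956 and 986 in Sox2 -DOX, and that of enteric neuron and glia markers 0.438 and 0.331 in Sox2 +DOX and 0.579 and 0.595 in Sox2 -DOX. Macrophage and granulocyte markers summed to 71.9 and 77.9 in Sox2 +DOX and 84.7 and 93.4 in Sox2 -DOX. A sum follows its brightest genes, and of these 7 markers 3 had higher and 4 lower values, with 2 called higher and 0 lower. Of all genes, 4.8% were called lower and 3.03% higher. The sums overlapped between the groups for B and plasma cell and for Paneth cell markers. In whole ileum, fewer cells of a type and less RNA per cell cannot be told apart. Absorptive enterocyte markers, whose part in the lower values of the general subunits was not tested, had a summed level of 212 and 453 in Sox2 +DOX and 1009 and 871 in Sox2 -DOX.

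**Figure D2:**
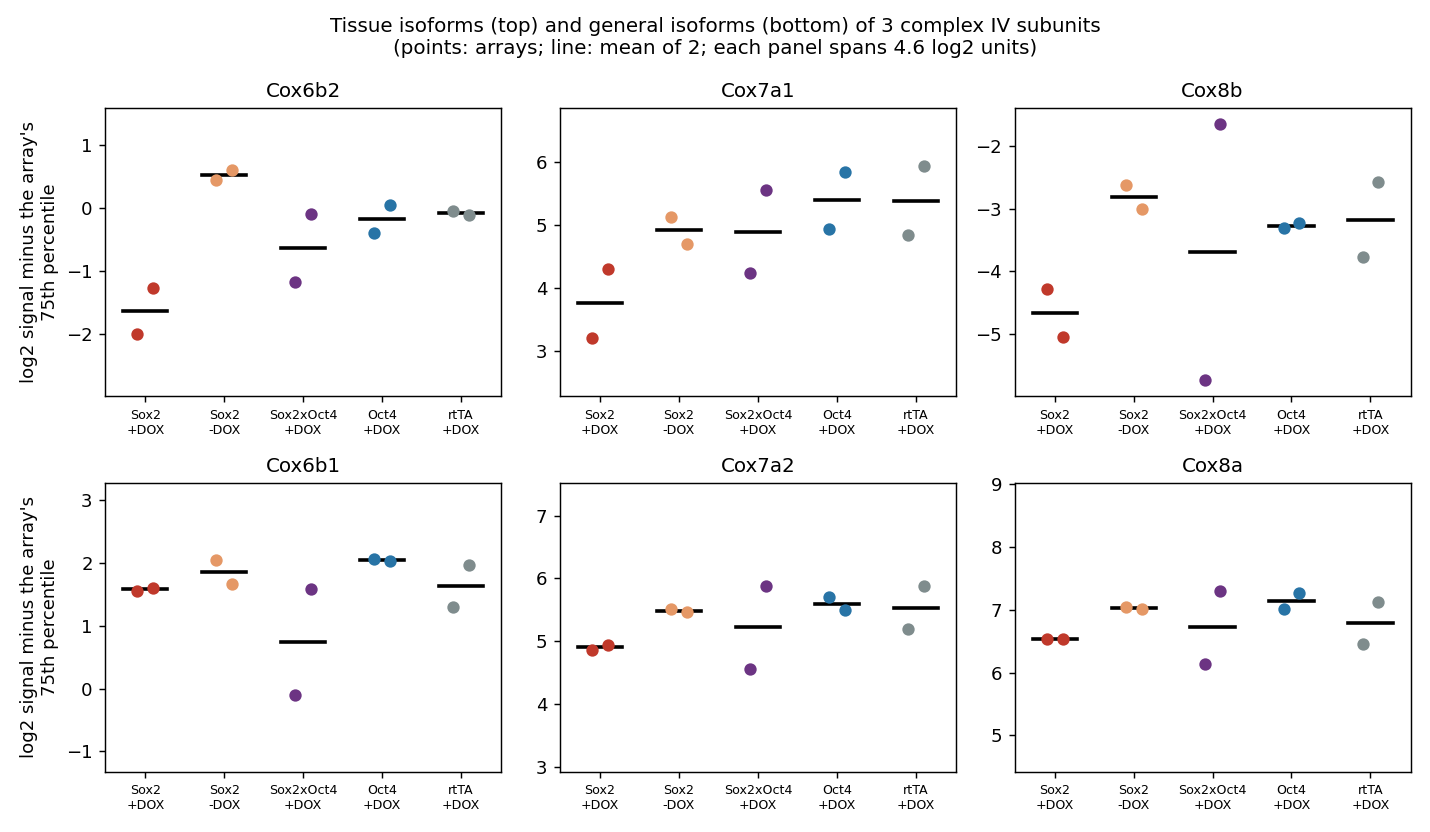
Level of 3 tissue isoforms (top row) and of their general counterparts (bottom row) of complex IV on each of the 10 arrays, as log2 signal minus the array's 75th percentile, with the mean of 2 as a line. Levels of Cox6b2 in Sox2 +DOX (-2.0 and -1.27) lie below those of the other 8 arrays, and the 2 levels of Cox8b in Sox2xOct4 +DOX (-5.73 and -1.65) lie at the extremes.

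The 4 genes that match the rule and are no subunits had higher values in Sox2 +DOX, with a median log2 change of 0.70 against -0.24 for the 77 subunits, and none was called. Ndufaf1, an early assembly factor of complex I, had levels of 1.41 and 1.25 in Sox2 +DOX, against 0.68 and 0.57 in Sox2 -DOX. Its change was 0.71 (standard error 0.26, adjusted p = 0.133 by limma). Atp5s had levels of 1.11 and 1.39 in Sox2 +DOX and 0.43 and 0.34 in Sox2 -DOX, a change of 0.87 (limma adjusted p = 0.16). Its second probe gave 0.74. Ndufa12l was at 0.64 and Cox4nb at 0.69. The groups did not overlap for any of the 4 by the probe that stands for the gene, nor for 66.4% of all genes. The dimmer second probe of Cox4nb gave 0.046, with overlapping levels of -2.77 and -3.36 in Sox2 +DOX and -3.29 and -2.93 in Sox2 -DOX.

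In Sox2xOct4 +DOX against rtTA +DOX, the comparison for both transgenes together, no gene of the chain was called in either direction. Of all genes, 6.34% were called (1208 of 19055). The median log2 change was -0.15 over the 81 genes and 0.07 over all genes, and all 81 changes were within 2-fold. The interval of the change lay within 2-fold in both directions for 30 of the 81, and for the others it reached beyond 2-fold. Only Atp5s had an unadjusted p under 0.05, against 23.9% of all genes. Its levels were 1.31 and 1.99 in Sox2xOct4 +DOX and 0.62 and 0.98 in rtTA +DOX (log2 change 0.85, adjusted p = 0.188 by limma). The 2 groups did not overlap for 8 of the 81 genes, against 52.7% of all genes. In both groups the 2 arrays lay further apart for the 81 genes than for all genes, as given below. Wider gaps within a group make separation rarer and standard errors larger. This share and the calls therefore do not measure how little changed.

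Complex II had the lowest median in Sox2xOct4 +DOX minus rtTA +DOX (-0.51), and its 4 subunits all had lower values. Sdhb had levels of 3.25 and 4.73 in Sox2xOct4 +DOX and 4.87 and 5.0 in rtTA +DOX, a change of -0.95 with an interval from -2.07 to 0.17. Sdhc had levels of 2.94 and 3.32 in Sox2xOct4 +DOX and 3.58 and 3.84 in rtTA +DOX, a change of -0.58 (interval from -1.22 to 0.07). By the probe that stands for each gene, the groups did not overlap for Sdha, Sdhb and Sdhc, and did for Sdhd. The second probe of Sdha had overlapping levels, 2.634 and 2.440 in Sox2xOct4 +DOX and 2.984 and 2.631 in rtTA +DOX. Of all genes, 52.7% did not overlap. Medians were -0.13 for complex I, -0.15 for complex III, -0.29 for complex IV and -0.15 for complex V. With quantile normalization they were 0.03 for complex I and -0.32 for complex II. No gene of complexes III, IV or V had groups that did not overlap. The lowest value in complex IV was that of Cox6b1, -0.90, with levels of -0.11 and 1.59 in Sox2xOct4 +DOX and 1.30 and 1.98 in rtTA +DOX. Cox6b2 was at -0.55, Cox8b at -0.51 and Cox7a1 at -0.49, none of them called.

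The 2 arrays of a group differed by a shift that ran through nearly all genes of the chain in Sox2xOct4 +DOX and rtTA +DOX. In Sox2xOct4 +DOX, 78 of 81 genes were higher on the array of replicate 2 than on that of replicate 1, by a median of 0.79 log2 units, against 0.12 over all genes. The 3 exceptions were Sdha, Ndufa5 and Ndufaf1. In rtTA +DOX, 77 of 81 were higher on the array of replicate 2, by a median of 0.64, against 0.11 over all genes, with Sdha, Cox6b2 and Cox7a2l among those that were not. The corresponding median gap was -0.03 in Sox2 +DOX and 0.01 in Oct4 +DOX. In Sox2 -DOX it was small and ran the other way, at -0.09, with 68 of 81 genes lower on the array of replicate 2. The array's 75th percentile signal was 1180 for replicate 1 and 590 for replicate 2 of Sox2xOct4 +DOX, and 1613 for replicate 1 and 913 for replicate 2 of rtTA +DOX. In Oct4 +DOX it was 777 for replicate 1 and 544 for replicate 2, with no such gap between the arrays. Enterocyte markers had a summed level of 370 and 833 in Sox2xOct4 +DOX and 687 and 1076 in rtTA +DOX. Their sum also differed between replicates in groups without the shift, at 212 and 453 in Sox2 +DOX and 765 and 1077 in Oct4 +DOX. Smooth muscle markers summed to 38.1 and 325 in Sox2xOct4 +DOX and 110 and 232 in rtTA +DOX, and adipocyte markers to 8.02 and 67.3 in Sox2xOct4 +DOX and 23.3 and 43.2 in rtTA +DOX. The part of signal strength or cell content in the shift was not tested.

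**Figure D3:**
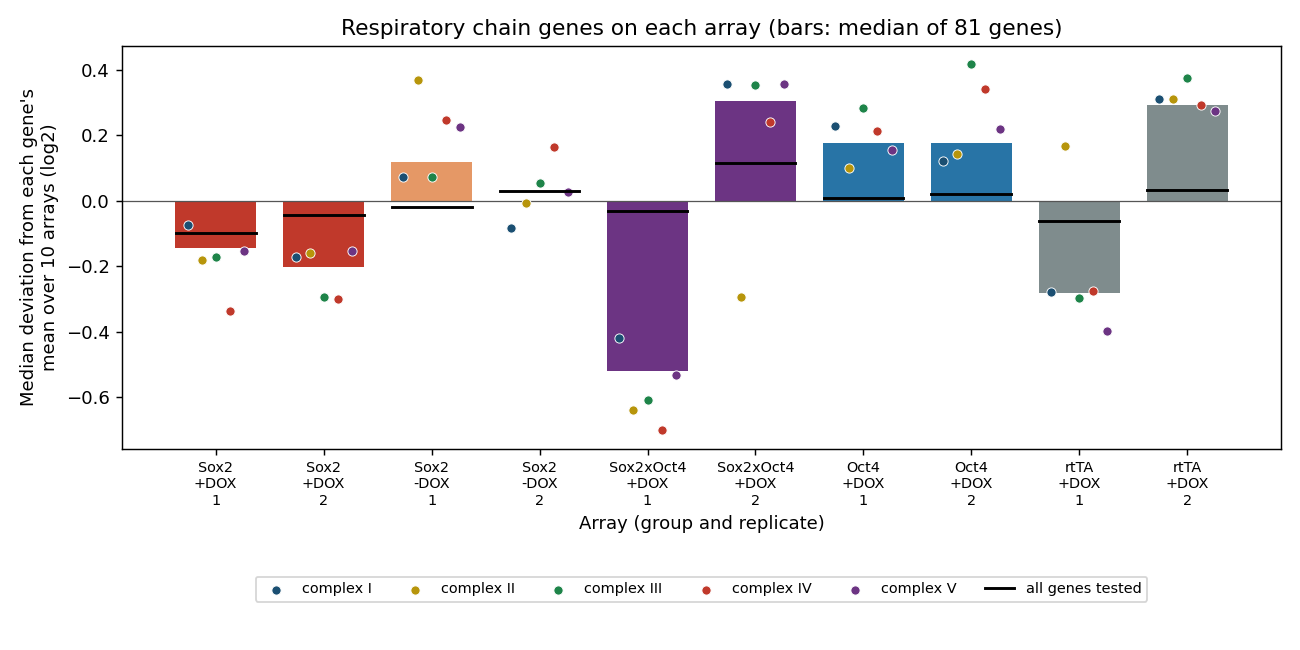
Median deviation of the 81 genes (bars) and of the subunits of each complex (points) on each array from the gene's own mean over the 10 arrays, in log2 units, with the median over all genes tested as a black line. Replicate 1 of Sox2xOct4 +DOX lies at -0.52 and replicate 2 at 0.30, replicate 1 of rtTA +DOX at -0.28 and replicate 2 at 0.29, while the 2 arrays of Oct4 +DOX both lie at 0.18.

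The sign of the median change in Sox2xOct4 +DOX minus rtTA +DOX depended on single arrays. It was -0.48 without replicate 2 of Sox2xOct4 +DOX and 0.29 without replicate 1, and -0.39 without replicate 1 of rtTA +DOX and 0.16 without replicate 2. Without replicate 2 of Sox2xOct4 +DOX, the log2 change was -1.75 for Cox6b1 and -2.56 for Cox8b. In that fit the lone array is taken to vary like the other groups. In Sox2 +DOX minus Sox2 -DOX, whose arrays showed no gap of that size, the median stayed between -0.30 and -0.16 whichever array was left out.

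The change in Sox2 +DOX against Sox2 -DOX was set against that in Sox2xOct4 +DOX against rtTA +DOX by the difference of the 2 comparisons, which share no array. The first holds DOX and sucrose besides the transgene, and in the second both groups received them. The difference therefore does not separate Sox2 alone from both transgenes. No gene of the chain was called in this difference, and 0.168% of all genes were. At an unadjusted p under 0.05 it was 1 of 81, against 9.61% of all genes. The largest difference was that of Cox6b2, -1.61 (standard error 0.59, adjusted p = 0.431 by limma), with an interval from -2.96 to -0.26. The median over the 81 genes was -0.04, and only 4 had an interval within 2-fold. With 2 arrays per group the intervals allow differences of more than 2-fold for 77 of the 81 genes.

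Oct4 alone gave no call in the chain against rtTA +DOX, where 1.01% of all genes were called. The median log2 change was 0.13 over the 81 genes and 0.01 over all genes, with 60 higher and 21 lower values, all within 2-fold. The interval of the change lay within 2-fold in both directions for 34 of the 81, and for the others it reached beyond 2-fold. Levels of Oct4 +DOX and rtTA +DOX were separate for 17 of the 81 genes, against 46.3% of all genes, and 0 of 81 had an unadjusted p under 0.05, against 13.3%. Uqcrc1 had the smallest p (log2 change 0.57, adjusted p = 0.510 by limma). Sox2 +DOX against rtTA +DOX, also between slides and with the same rtTA arrays, had no gene of the chain called, and 8.37% of all genes were. Levels were separate between groups for 23 of 81, against 63% of all genes. At an unadjusted p under 0.05 there were 2 of 81, against 28.5% of all genes, Cox6b2 and Cox7a1. Cox6b2 was at -1.56 (interval from -2.51 to -0.60, limma adjusted p = 0.0563), and Cox7a1 at -1.64 (interval from -3.04 to -0.24, adjusted p = 0.125). The Cox6b2 difference was called in 3 alternative fits, with normexp and quantile normalization (0.047), a variance trend (0.0391) or the replicate block (0.0362). Between the controls, rtTA +DOX and Sox2 -DOX, limma called no gene of the whole array (0%, with 5.61% at an unadjusted p under 0.05), and no gene of the chain had an unadjusted p under 0.05. Levels were separate for 13 of 81, against 43.2% of all genes. The median over the 81 genes was -0.04, and Cox6b2 was at -0.61 (interval from -1.56 to 0.35). Each count of separate genes in this paragraph rests on the rtTA +DOX arrays. These differed by a median of 0.64 over the 81 genes, against 0.11 over all genes. Wider gaps within a group make separation rarer and standard errors larger. These counts and the calls therefore do not measure how little changed.

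Of the 81 genes, 24 had more than 1 probe that passed the filter. In Sox2 +DOX minus Sox2 -DOX the probes of a gene had the same sign for 16 of the 24, and the median spread between them was 0.17 log2 units. The widest was that of Ndufc1, a small subunit of complex I, where the 3 probes gave -0.39, -0.28 and 0.64. Only the Cox6b2 probe was called among 111 probes, against 1969 of all 28760 probes that passed the filter.

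Other mitochondrial genes were read from lists that do not overlap with the rule. Of 38 further genes of the chain (assembly factors, carriers and cytochrome c), 1 was called in Sox2 +DOX against Sox2 -DOX, and the list's median was 0.04. It was Nubpl, an assembly factor that delivers iron-sulphur clusters to complex I, higher with levels of 0.57 and 0.32 in Sox2 +DOX and -0.62 and -0.97 in Sox2 -DOX (log2 change 1.24, adjusted p = 0.0437 by limma). Nubpl was at 1.06 in Sox2xOct4 +DOX minus rtTA +DOX (limma adjusted p = 0.0763). Mitochondrial ribosomal proteins had a median of 0.54 in Sox2 +DOX minus Sox2 -DOX, with 72 of 78 values higher and 1 called, Mrps6 (1.4, limma adjusted p = 0.0439). The median for the chain's subunits was -0.24 in the same arrays. Of 20 genes of the tricarboxylic acid cycle and pyruvate dehydrogenase, 1 was called, Dlst, a subunit of the oxoglutarate dehydrogenase complex. Dlst had levels of 3.93 and 3.74 in Sox2 +DOX, against 4.97 and 4.87 in Sox2 -DOX, and fell by 1.08 on the log2 scale (limma adjusted p = 0.0368). Dlst also fell by 1.07 in Sox2xOct4 +DOX against rtTA +DOX (limma adjusted p = 0.0428), with levels of 4.04 and 3.93 in Sox2xOct4 +DOX and 5.02 and 5.09 in rtTA +DOX.

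Among 18 genes of mitochondrial biogenesis and mitochondrial DNA maintenance, Esrrg, the oestrogen-related receptor gamma, was called in both within-slide comparisons. Its levels were -1.4 and -2.28 in Sox2 +DOX, against -4.57 and -4.63 in Sox2 -DOX, a rise of 2.76 on the log2 scale (adjusted p = 0.0379 by limma). In Sox2xOct4 +DOX they were -1.22 and -0.27, against -4.09 and -2.82 in rtTA +DOX, a rise of 2.71 (limma adjusted p = 0.0449). With normexp and quantile normalization the change was 1.38 in Sox2 +DOX minus Sox2 -DOX, no longer called (limma adjusted p = 0.0734), and 1.69 in Sox2xOct4 +DOX minus rtTA +DOX (0.047). Without the filter on dim probes neither was called (0.055 and 0.0634). Ppargc1a, a coactivator of mitochondrial biogenesis, was at -1.56 in Sox2 +DOX minus Sox2 -DOX (limma adjusted p = 0.0713) and at -1.08 in Sox2xOct4 +DOX minus rtTA +DOX (0.192). Nrf1 was at -0.09 and Gabpa at 0.10 in Sox2 +DOX minus Sox2 -DOX, neither called.

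Glycolysis makes ATP without the chain. Of 24 genes, 4 were called lower and 1 higher in Sox2 +DOX against Sox2 -DOX, where 4.8% of all genes were called lower and 3.03% higher. Hexokinase Hk2 fell by 2.02 on the log2 scale (adjusted p = 0.0154 by limma), with levels of 2.92 and 2.74 in Sox2 +DOX and 4.87 and 4.83 in Sox2 -DOX. The platelet-type phosphofructokinase Pfkp fell by 1.85 (limma adjusted p = 0.0127) and the liver type Pfkl rose by 1.45 (0.0261). Pklr, the pyruvate kinase of liver, and Slc16a3, a lactate exporter, fell by 2.37 (0.0365) and 1.79 (0.0350). Whether the share of calls differs between these lists was not tested. In Sox2xOct4 +DOX against rtTA +DOX, 3 of the 24 were called, against 6.34% of all genes. Pdk4, a kinase that shuts off pyruvate dehydrogenase, rose by 3.29, and Pfkp and Pklr fell by 1.85 and 2.28. The 9 calls in these lists for Sox2 +DOX against Sox2 -DOX were all lost without replicate 1 of Sox2 +DOX, and likewise without either array of Sox2 -DOX, with adjusted p-values up to 0.271 and no change of sign under any alternative. Those of Dlst, Mrps6, Nubpl, Pfkl, Pklr and Slc16a3 were also lost in the fit to the arrays compared alone, in the authors' normalized table and without the filter on dim probes, that of Dlst with quantile normalization, and those of Mrps6 and Nubpl with the replicate block. For Sox2xOct4 +DOX against rtTA +DOX all 5 calls (Dlst, Esrrg, Pdk4, Pfkp, Pklr) were lost without either rtTA +DOX array. All of these but Pdk4 were lost in the fit to the arrays compared alone, and those of Dlst, Esrrg and Pklr also with the replicate block and without the filter on dim probes.

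**Figure D4:**
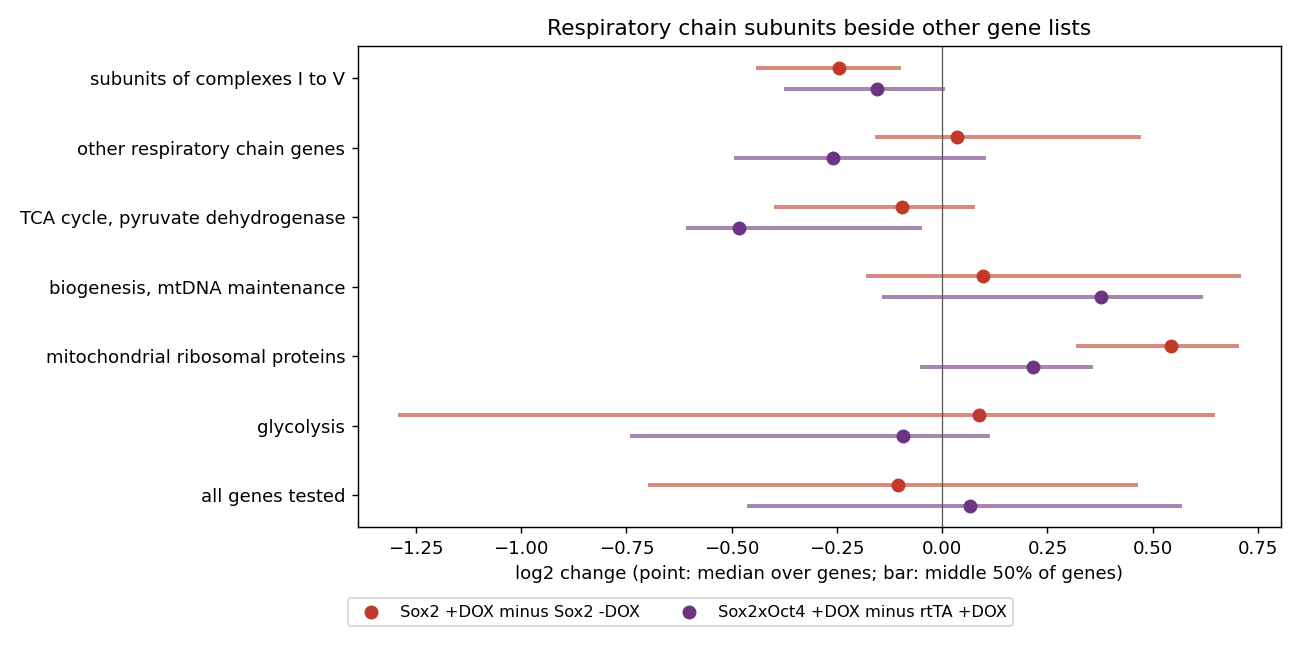
Median log2 change (points) and range of the middle 50% of genes (bars) for the subunits of complexes I to V, 5 other gene lists and all genes tested, in Sox2 +DOX minus Sox2 -DOX and Sox2xOct4 +DOX minus rtTA +DOX. The subunits have a narrow range, with medians of -0.24 and -0.15, and mitochondrial ribosomal proteins lie higher, at 0.54 and 0.22.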

How the data were processed

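Per the file headers, the deposited intensity values had been background-subtracted and spatially detrended by Agilent Feature Extraction within each array, and arrays were not normalized to each other. The submitters' processing notes name version 9.1 of that program. The headers, by contrast, record later versions, and each slide has its own. Comparisons across slides therefore also differ in program version. The deposited spot and local background intensity was used for the normexp alternative. A deposited table of the authors' normalized intensity values covers the TetON-Sox2 arrays only, and its steps are not given in the sources used here. It served as an alternative.

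Flagged outlier spots were left out (31 of 41174 probes were dropped), processed signals were put on the log2 scale and each array's 75th percentile subtracted (signals of 544 to 1613). No probe was saturated, and the 2 arrays per group limit the precision. Probes were named through RefSeq for 33000 of 41143 and by the file otherwise. The tests came from limma 3.58.1 under R 4.3.3 (lmFit and eBayes, 1 mean per group over all 10 arrays, two-sided, Benjamini-Hochberg over 19055 genes, with 5 residual degrees of freedom). The fit was tested on simulated data. Python 3.11.15 with pandas 2.3.3 made the tables. Members, gene lists and markers were chosen with earlier results of these data known. The genes named were those called, the 3 lowest and 3 highest per complex in Sox2 +DOX minus Sox2 -DOX and the tissue isoforms. The others (such as Atp5b, Atp5s, Ndufaf1, Ndufc1, Ppargc1a and the general complex IV subunits) were chosen after their values were seen. Alternatives were normexp, quantile normalization, no filter on dim probes, all probes, a variance trend, only the arrays compared, a replicate or slide block, the authors' table and leaving out each array.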

Additional observations from a re-analysis of the deposited data

How the results depend on the processing

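The count of called respiratory chain genes in Sox2 +DOX against Sox2 -DOX was 1 (Cox6b2). It was 0 in a fit to only the arrays compared and 0 in the authors' normalized table, and between 0 and 1 when each array was left out, with 165 to 1729 calls over all genes. In Sox2xOct4 +DOX against rtTA +DOX leaving out arrays gave 0 to 2 calls and a median log2 change from -0.48 to 0.29. The median in Oct4 +DOX minus rtTA +DOX lay between -0.10 and 0.50, and that of the difference of responses between -0.44 and 0.35. In Sox2 +DOX against rtTA +DOX, 1 gene (Cox6b2) was called with normexp and quantile normalization, 1 with a variance trend and 1 with the replicate block. In that order, these fits called 1932, 2030 and 1672 of all 19055 genes. Same-numbered arrays did not deviate together in every pair (correlations of -0.13 to 0.27), so the numbers were not taken to pair the arrays. With the replicate block, Sox2 +DOX against Sox2 -DOX kept a count of 1 among 1479 calls over all genes, against 1493 without it. That total was 619 with only the arrays compared, 693 in the authors' table and 932 without the filter. Of 2664 values of 36 named respiratory chain genes under alternatives, 2654 kept their side of the threshold, 5 lost a call, 5 gained one and 0 called values changed sign. Quantile normalization moved the median of all genes in Sox2 +DOX minus Sox2 -DOX by over 0.1, to 0.00 against -0.10, and that of the 81 genes to -0.09 against -0.24. The cause of these differences was not tested, and a fit that leaves 1 array in a group has fewer degrees of freedom. The slide block is the same model as 1 mean per group in another form, so it could not move a value within slides. It is still counted among the 2664 values. The dim probe of Cox8b had a standard error of 1.09, and its change was -0.63 with normexp and quantile normalization, against -1.83.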
